A study of Homo sapiens with 9 samples.

Results

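Parental 786-O cells, an established human line from clear cell renal cell carcinoma, were precipitated with 2 antibodies, and the peaks of both were compared: 20199 peaks of an antibody against MYC and 3361 peaks of an antibody against green fluorescent protein (GFP). Together they are 23560 of the 52875 peaks in the series. Members were taken by library, with no filter on score. A site was common where a MYC and a GFP peak overlapped by 1 bp or more, and a stricter rule also asked for midpoints within 200 bp of each other. The cells of both libraries were labelled parental, without the eGFP knock-in, and no drug is named for either, so the GFP library had no intended target there. Each antibody has 1 library. No test across replicates was possible, and the 95% intervals given are exact binomial intervals that cover counting error only, taking peaks as independent.

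The series profiled ZNF395, a zinc finger transcription factor, through an eGFP tag inserted at its gene in 786-O and in A498, a second line of clear cell renal cell carcinoma, with parental cells of both lines as controls. Peak lists came with 5 of its 9 samples, and the other 4 are inputs. The labels do not say whether the tagged cells were a clone or a pool. The MYC library is MYC by its title and its antibody field (a c-Myc antibody), while its target field names P300, a coactivator at active promoters and enhancers, and MYC here means the library so titled. In the cell line field even the A498 libraries are given as 786-O, and A498 means the libraries with that title. The MYC and the parental 786-O GFP list were called against 1 and the same control library, so their peaks are not independent of each other, and the part of the control in their overlap was not tested. The lists of tagged 786-O, tagged A498 and parental A498 each name a control of their own.

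MYC is a basic helix-loop-helix leucine zipper protein that binds DNA as a dimer with MAX, best at the E-box CACGTG, and is found at the promoters of a large share of active genes, among them those of ribosome and nucleotide synthesis. In chromatin immunoprecipitation with sequencing (ChIP-seq), DNA bound by a protein is enriched with an antibody and read out as peaks of coverage over a control. A GFP antibody in cells without GFP serves as a measure of what the procedure enriches without its target. Since no annotation or sequence of the hg19 build was used here, peaks are given by their hg19 position, counted from 1, without genes or motifs.

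Most of the GFP peaks lay at MYC peaks, whereas few of the MYC peaks lay at GFP peaks. Of the GFP peaks, 2032 (60.5%, 95% interval 58.8 to 62.1) overlapped a MYC peak, and 1360 (40.5%, 38.8 to 42.1) also had midpoints within 200 bp. Of the MYC peaks, 1939 (9.60%, 9.20 to 10.0) overlapped a GFP peak, and 1358 (6.72%, 6.38 to 7.08) met the stricter rule. The MYC list is much the longer, which bounds the share of it that GFP peaks can reach. In bases, 456 kb of the 850.4 kb of GFP peaks (53.6%) lay inside MYC peaks, which was 4.22% of the 10805 kb of MYC peaks. A MYC peak usually held a single GFP peak (1835 of 1939), while 97 held 2 and 7 held 3. The overlap was shorter than 50 bp at 37 of the 2032 GFP peaks.

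The score of a peak, read as a −log10 p or q of the authors' peak caller, was used to divide each list into 10 equal parts, called deciles from 1 (lowest) to 10 (highest). In the MYC list, the share with a GFP peak was higher at higher score. It was 3.42% (2.67 to 4.31) in the lowest decile, with scores from 2.00 to 5.78. It was 6.29% in decile 5, 10.5% in decile 7, 16.1% (14.5 to 17.8) in decile 9 and 23.4% (21.6 to 25.3) in the highest, with scores from 68.0 to 409.9. Within the highest decile it was higher again: 142 of the 500 highest MYC peaks and 40 of the 100 highest had a GFP peak. Under the rule that also limits the midpoints, the lowest decile had 2.72% and the highest 13.7% (12.2 to 15.3).

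The GFP list ran the other way at its upper end. In its 8 lower deciles, with scores from 2.00 to 13.4, between 61.0% and 70.5% of the peaks overlapped a MYC peak, and these 8 intervals overlap. In decile 9 the share was 49.4% (43.9 to 54.9), and in the highest decile, with scores from 24.6 to 171.7, it was 20.5% (16.3 to 25.2), or 69 of 337 peaks. Of the 10 GFP deciles, the highest thus had the lowest share at MYC peaks. At the very top the counts were mixed, since 12 of the 20 highest GFP peaks had a MYC peak but only 22 of the 100 highest.

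**Figure D1:**
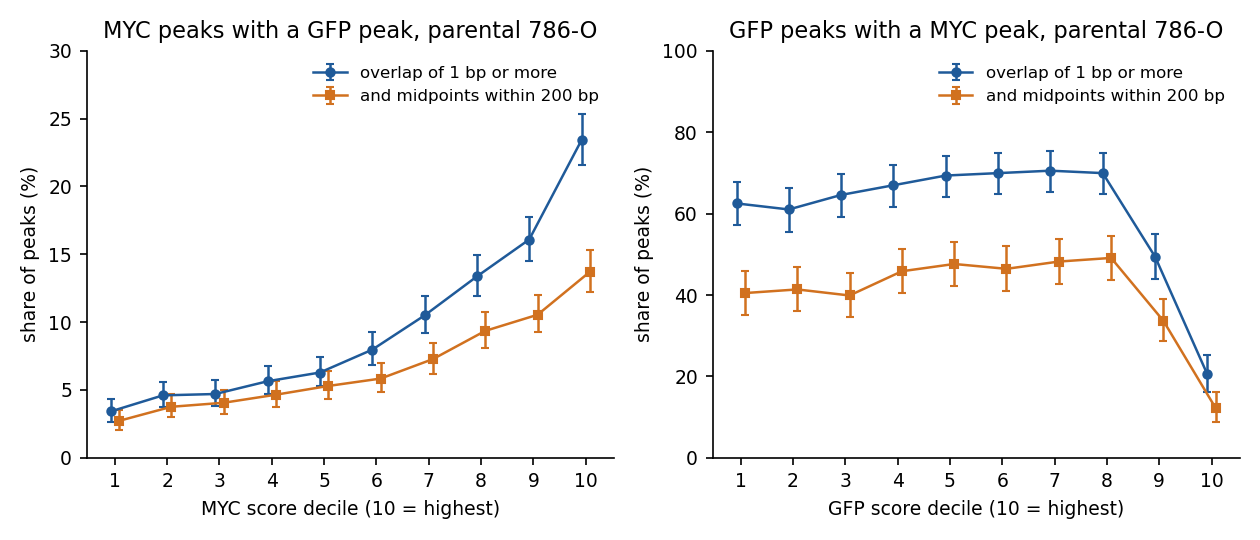
Share of MYC peaks with a GFP peak (left) and of GFP peaks with a MYC peak (right) in each score decile of the own list; circles ask for 1 bp of overlap, squares also for midpoints within 200 bp, and bars are exact 95% intervals. The MYC share goes from 3.42% to 23.4%, and the GFP share stays between 61.0% and 70.5% over 8 deciles before 49.4% and 20.5%.

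The GFP peaks fell into unlike sets when the GFP list of parental A498, another line with its own control, was set beside them. In all, 727 of the 3361 GFP peaks (21.6%) had a parental A498 peak. Among these, 186 (25.6%, 22.4 to 28.9) overlapped a MYC peak of 786-O. Among the other 2634 it was 1846 (70.1%, 68.3 to 71.8). The share with a parental A498 peak was between 2.98% and 20.8% in the 8 lower GFP score deciles, 57.7% in decile 9 and 91.1% (87.5 to 93.9) in the highest. Outside the peaks common to both parental lines, the share with MYC did not drop in decile 9: it was 64.9% (59.4 to 70.1) in the lowest decile, 75.4% in decile 7 and 78.9% (71.2 to 85.3) in decile 9. In the highest decile only 30 such peaks were left, of which 20 (66.7%, 47.2 to 82.7) overlapped MYC. Among peaks common to both parental lines, the share with MYC was 27.8% (21.7 to 34.7) in decile 9 and 16.0% (12.0 to 20.5) in the highest decile.

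**Figure D2:**
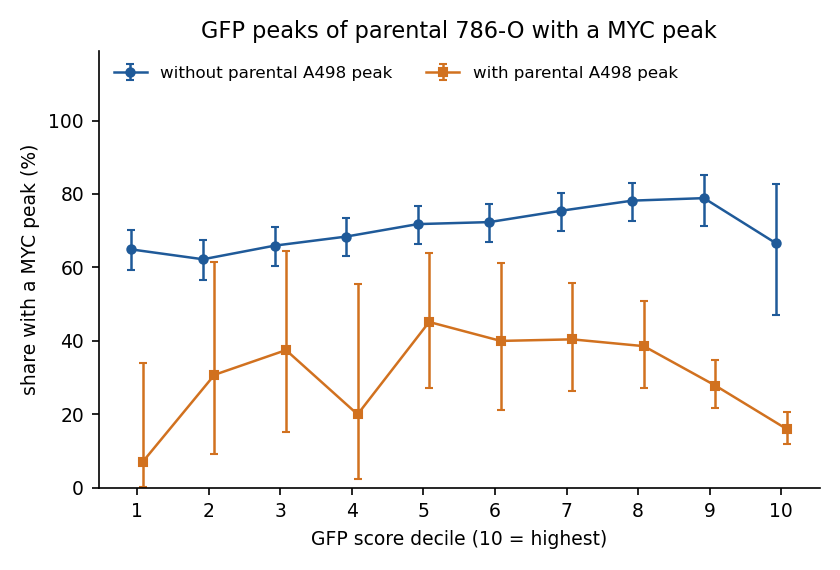
Share of parental 786-O GFP peaks that overlap a MYC peak, by GFP score decile, for peaks with (squares) and without (circles) a GFP peak in parental A498; bars are exact 95% intervals. Circles lie between 62.2% and 78.9%; squares rest on 10 to 70 peaks in the 8 lower deciles and stand at 16.0% in the highest.

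Of the 4 sets that MYC and parental A498 define, the largest held 1846 GFP peaks (54.9%) with MYC and without A498; their median score was 5.95 and their median width 199 bp. A further 788 (23.4%) had neither, at 5.16 and 162 bp. The 541 GFP peaks (16.1%) with A498 but without MYC had the highest median score, 23.4, and a width of 198 bp, and they made up 258 of the 337 peaks of the highest decile. The 186 (5.53%) with both had a median score of 15.4 and were the widest, at 284 bp. The same 4 sets differed in whether the GFP antibody had a peak in tagged 786-O cells, which was so for 91.7% (90.3 to 92.9) of the peaks with MYC alone, 96.8% of those with both, 80.2% (76.6 to 83.5) of those with A498 alone and 32.4% (29.1 to 35.8) of those with neither.

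Crowding of GFP peaks in the genome differed between the classes of both lists, in opposite directions. Counted in 1 Mb bins, 30 bins held 10 or more GFP peaks, and these held 528 GFP peaks (15.7%) and 658 MYC peaks (3.26%). Of the GFP peaks without MYC 29.1% (26.7 to 31.6) lay there, and of those with MYC 6.94% (5.87 to 8.13). Inside crowded bins 26.7% (23.0 to 30.7) of GFP peaks overlapped MYC, and outside them 66.7% (65.0 to 68.5). For MYC peaks the order was the reverse: 20.4% (17.4 to 23.6) of those inside crowded bins had a GFP peak, and 9.24% (8.83 to 9.65) of those outside. Of the MYC peaks with a GFP peak 6.91% (5.82 to 8.13) lay in crowded bins, and of those without 2.87% (2.63 to 3.12). The bins were chosen for many peaks of this same GFP list, so a MYC peak in them meets a GFP peak more easily. This order for MYC peaks is thus in part set by the choice of bins. The bins were themselves of unlike kinds. In 13 of them, with 315 GFP peaks, under 20% of the GFP peaks were at MYC peaks, and 296 of the 315 had a parental A498 peak; chromosome 10 from 42 to 43 Mb (51 GFP peaks, 0 at MYC), chromosome 4 from 49 to 50 Mb (48, 1 at MYC) and chromosome 16 from 46 to 47 Mb (38, 0 at MYC) led them. In another 13, with 169 GFP peaks, over 50% were at MYC peaks, and 27 of the 169 had a parental A498 peak. Here chromosome 9 from 139 to 140 Mb held 20 GFP peaks, 17 of them at MYC, among 63 MYC peaks, and chromosome 17 from 79 to 80 Mb held 13, of which 11 were at MYC, among 58 MYC peaks. Without the crowded bins, the highest GFP decile, formed anew, overlapped MYC in 46.1% of cases. In the original highest decile, 60 of the 169 peaks outside crowded bins did so (35.5%, 28.3 to 43.2).

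MYC peaks with a GFP peak were wider and of higher score than the rest of the list. Their median width was 740 bp (95% interval of the median 723 to 769, quartiles 459.5 to 1084), against 403 bp (397 to 407, quartiles 270 to 641) without a GFP peak. Their median score was 32.9 (31.1 to 35.1), against 15.3 (15.1 to 15.5), which placed the median of the common peaks at percentile 74.2 of the MYC list. The width difference was also seen within score deciles. In the lowest decile the medians were 303 bp with and 252.5 bp without a GFP peak, in decile 5 490 and 357 bp, and in the highest 1156 bp (1114 to 1202) and 865 bp (849 to 885). The intervals of the medians did not overlap in any of the 10 deciles.

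Width and score go together in the MYC list (Spearman's rho 0.70 across its peaks, given as a description), and a wider peak meets a GFP peak more easily by overlap. By width alone, the share with a GFP peak was 2.55% in the narrowest quintile (187 to 258 bp) and 23.0% (21.7 to 24.3) in the widest (765 to 3509 bp). When a midpoint within 200 bp was also asked for, these shares were 2.28% and 12.4% (11.4 to 13.4). Among the narrowest MYC peaks no order by score was detectable: the share was 2.41% (1.79 to 3.17) in the lowest score quintile, 2.83% in the second and 2.35% (1.22 to 4.07) in the third. In the second width quintile (258 to 354 bp) it lay between 3.28% and 4.74% in all score quintiles, with overlapping intervals. In the third (354 to 511 bp) it lay between 6.18% and 8.46%, again with overlapping intervals. In the fourth (511 to 765 bp) score quintile 1 had 6.19% (3.43 to 10.2) and score quintile 5 had 12.7% (10.8 to 14.7), with 9.17%, 8.57% and 11.5% between. The widest quintile had 18.4% (7.74 to 34.3) in its lowest score quintile, which held only 38 peaks, and 11.6% (6.93 to 18.0) in the next. From there the shares were 14.6% (11.5 to 18.1), 20.3% (18.0 to 22.8) and 27.0% (25.2 to 28.9). The intervals of score quintiles 1 and 5 were thus apart in width quintile 4 and overlapped in the widest, where that of score quintile 5 lay above those of 2, 3 and 4.

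GFP peaks were narrow, with a median of 192 bp over the list (quartiles 145 to 271), and those with a MYC peak were somewhat wider (205 bp, 201 to 210) than those without (168 bp, 164 to 173). In the highest GFP decile the gap was larger, at 390 bp (350 to 508) against 168 bp (155 to 190). Scores went the other way from those of MYC: the median GFP score was 6.26 (6.09 to 6.45) with and 7.45 (7.08 to 7.89) without a MYC peak, and the upper quartiles were 9.27 and 19.2. The order turned among GFP peaks without a parental A498 peak, where the median score was 5.95 with and 5.16 without MYC. Among those with a parental A498 peak it was 15.4 with and 23.4 without MYC. The narrowest peak was 187 bp in the MYC list and 122 bp in the GFP list, so widths of the 2 lists are not on a common footing.

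**Figure D3:**
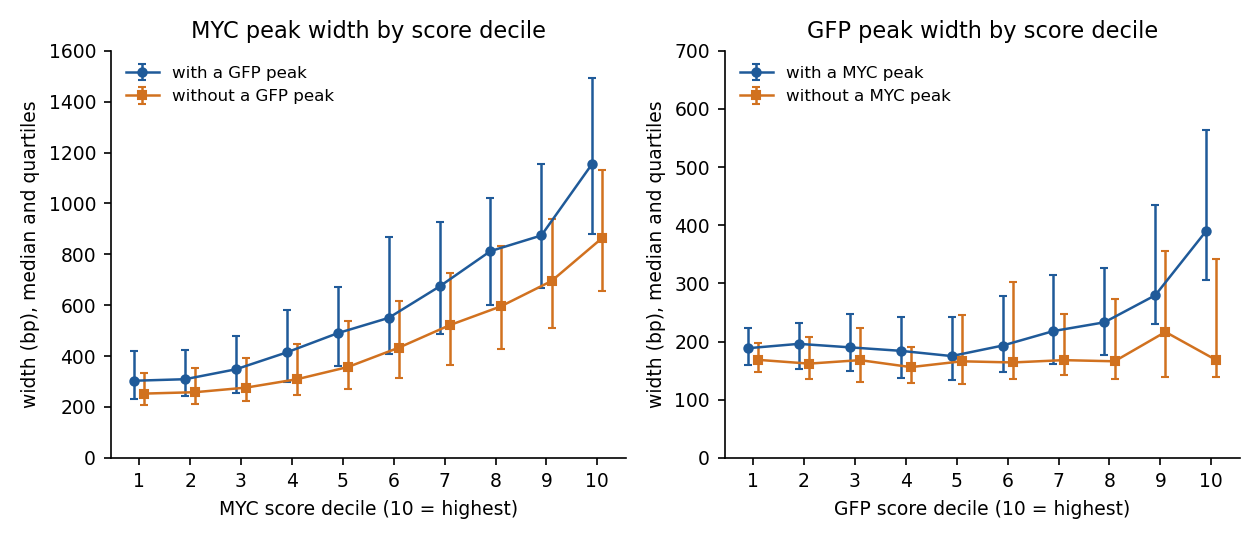
Peak width by score decile of the own list, for MYC peaks with and without a GFP peak (left) and GFP peaks with and without a MYC peak (right); points are medians and bars the quartiles. Common MYC peaks are wider in every decile (303 against 252.5 bp in the lowest, 1156 against 865 bp in the highest), and common GFP peaks stand apart most in the highest decile (390 against 168 bp).

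A common site was in most cases a narrow GFP peak inside a broader MYC peak. Of the 2032 GFP peaks, each taken with its nearest overlapping MYC peak, 1579 (77.7%) lay wholly inside it. This share was 48.0% at MYC peaks under 500 bp and 94.2% at those of 1000 bp or more. The width of the 2032 was a median of 0.286 of that of the MYC peak, and they covered a median of 26.4% of it. Midpoints were a median of 130 bp apart (quartiles 56.5 to 241). The distance was 70.75 bp at MYC peaks under 500 bp, 125 bp at those of 500 to under 1000 bp and 243.5 bp (quartiles 117 to 388.5) at those of 1000 bp or more, where only 40.5% met the 200 bp limit, against 91.4% in the narrowest class. Relative to the MYC peak, 65.2% (63.1 to 67.3) of the GFP midpoints lay in its inner 50%, 29.0% in its outer 50% and 5.76% beyond its edge. At MYC peaks of 1000 bp or more the inner share was 69.2% (65.5 to 72.6), and at those under 500 bp it was 58.0% (53.8 to 62.2). The limit of 200 bp cut through a continuous range of distances: 49 GFP peaks lay at 190 to 200 bp and 37 at over 200 to 210 bp.

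**Figure D4:**
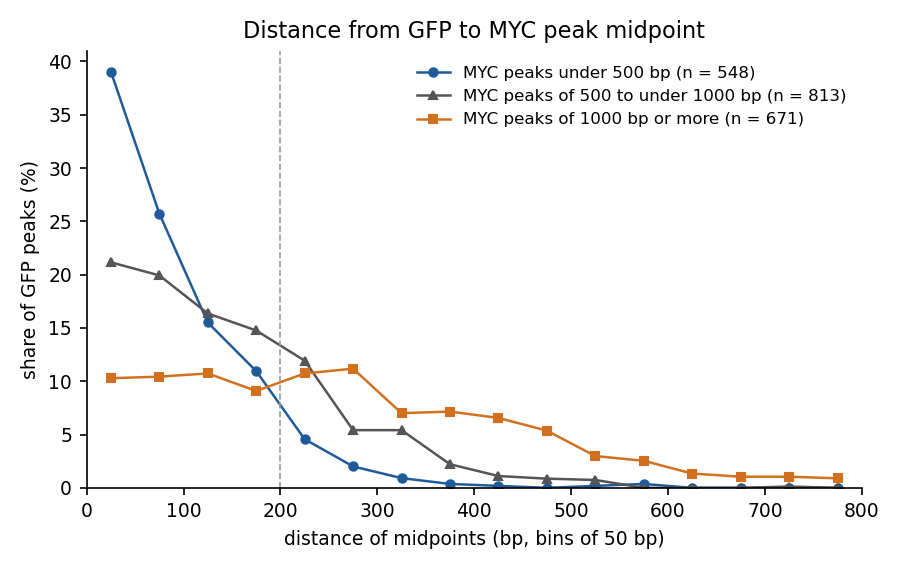
Distance from the midpoint of a GFP peak to that of the MYC peak it overlaps, in bins of 50 bp, for 3 width classes of MYC peaks; the dashed line marks 200 bp. The narrow class is steep, with 39.1% of its 548 GFP peaks within 50 bp, and the widest is flat, with 9.09% to 11.2% of its 671 in each bin up to 300 bp; distances of 800 bp or more are not drawn.

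The same MYC peaks were compared with the GFP peaks of tagged cells, where the antibody has its target. At the 1805 MYC peaks with a GFP peak in both parental and tagged 786-O, the midpoint was a median of 125 bp from MYC in parental and 103.5 bp in tagged cells, and the tagged peak was the nearer at 970 (53.7%, 51.4 to 56.1). Peak width differed, with medians of 207 bp in parental and 804 bp in tagged cells. At MYC peaks of 1000 bp or more the distances were 217 bp (quartiles 105 to 333.5) and 126.5 bp (55.5 to 266), and the tagged peak was nearer at 62.4% (58.4 to 66.4). Under 500 bp it was nearer at 42.3% (37.8 to 46.9). At MYC peaks of 1000 bp or more, GFP peak widths had medians of 225 bp in parental and 1135 bp in tagged cells. Under 500 bp they were 197.5 and 519 bp. The part of width in these distances was not tested.

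The leading common sites were strong in the MYC list and moderate in the GFP list, which follows in part from how they were chosen. In the longer MYC list a percentile spans more ranks, so a sum of ranks favours a high MYC percentile over a high GFP percentile. By the sum of ranks, the first was chr2:232574639-232575864, with MYC rank 71 and GFP rank 349. It was followed by chr9:91932861-91934358 (MYC rank 23, GFP rank 604) and chr13:30168330-30170215 (MYC rank 20, GFP rank 619). Next came chr7:44835656-44837267 (ranks 58 and 631), chr1:8937867-8939713 (95 and 603) and chr2:85765383-85767344 (152 and 618). The remaining 4 of the 10 were chr7:156742040-156742887, chr16:87902730-87903720, chr6:44214069-44215768 and chr17:7475518-7477434. All 10 lay between percentiles 97.9 and 99.9 of the MYC list and between 76.2 and 89.6 of the GFP list. None was therefore in the highest GFP decile. The MYC peaks were 848 to 1962 bp wide and the GFP peaks 224 to 798 bp. All 10 also had a GFP peak in tagged 786-O, 9 in tagged A498 and 4 in parental A498. Among all MYC peaks of the highest decile with a parental 786-O GFP peak, these shares were 98.7%, 63.4% and 9.94%.

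Some common sites were at opposite ends of the 2 lists. Those with the highest MYC and lowest GFP percentile were chr3:39447908-39448790 (MYC rank 21, GFP rank 3324 of 3361), chr9:88896686-88898081, chr1:245026066-245027122, chr1:38273152-38274362 and chr2:171829815-171830310. Their GFP scores were 2.24 to 2.56, close to where the list begins, and none had a parental A498 peak. Among all GFP peaks with MYC in the lowest GFP decile, only 0.476% had a parental A498 peak. In the other direction stood chr1:148241352-148242165, with GFP rank 21 and MYC rank 19532 of 20199, chr15:75628168-75628514 (GFP rank 32, MYC rank 18631), chr20:44519766-44520134 (67 and 19025) and sites on chromosomes 8 and Y, given here by their GFP peaks. MYC scores there were 2.78 to 5.34, and 4 of the 5 had a parental A498 peak. Among all GFP peaks with MYC in the highest GFP decile, 71.0% had one. The GFP peak was the wider at the sites on chromosomes 1 (814 against 204 bp), 15 (347 against 191 bp) and 20 (369 against 224 bp). It was the narrower at those on chromosomes 8 (248 against 317 bp) and Y (139 against 239 bp).

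Strong MYC peaks without a GFP peak were many, beginning with the highest of the list. This was chr20:17948747-17950211, with a MYC score of 409.9, whose nearest GFP midpoint was 2625 kb away, although parental A498 had a GFP peak there. The next were chr2:29117178-29118824 (rank 4), chr17:17108816-17110360 (rank 5), chr20:342825-343617 (rank 6) and chr10:5854796-5856314 (rank 7). The other 5 of the 10 were chrX:9430923-9431689, chr5:154133939-154135519, chr2:232328125-232329714, chr17:49243495-49244694 and chr19:2059169-2060265. They were 767 to 1647 bp wide, so neither high score nor width went with a GFP peak in every case. All 10 had a GFP peak in tagged 786-O and 4 had one in tagged A498. Among all MYC peaks of the highest decile without a parental 786-O GFP peak, these shares were 82.6% and 30.0%. Over the whole highest decile, 473 of the 2020 MYC peaks had a parental GFP peak.

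The strongest GFP peaks without MYC were nearly all present in parental A498. They were led by chr17:19091278-19091579 (score 171.7) and chr17:19015201-19015751 (score 146.2), which lay 174 and 123 kb from the nearest MYC midpoint. Then came chr1:28975010-28975899, chr2:122288323-122289226, chr1:567516-567664, chr22:43011120-43011925, chr1:149223296-149224298, chr17:72510118-72511358, chrY:10036477-10036650 and chr12:120729040-120729852. All 10 had a GFP peak in tagged 786-O, 9 in parental A498 and 8 in tagged A498. Among all GFP peaks without MYC in the highest GFP decile these shares were 86.6%, 96.3% and 60.4%, so presence in parental A498 is not particular to the 10 named. For 2 of the 10 a MYC peak was close by without touching, with midpoints 0.735 kb (chromosome 2) and 0.991 kb (chromosome 22) apart. Among all 1329 GFP peaks without MYC, 129 (9.71%) had a MYC midpoint within 1 kb and 426 (32.1%) within 10 kb, and the median distance was 35.1 kb (quartiles 5.23 to 247) for those on a sequence with MYC peaks.

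GFP precipitation in other cells found the common MYC peaks again more often than the rest. Of all MYC peaks, 60.9% had a GFP peak in tagged 786-O, 17.2% in tagged A498 and 1.23% in parental A498. For MYC peaks with a parental 786-O GFP peak these shares were 93.1% (91.9 to 94.2), 48.0% (45.8 to 50.3) and 9.95% (8.66 to 11.4). For those without they were 57.5% (56.8 to 58.2), 13.9% (13.4 to 14.4) and 0.307% (0.232 to 0.398). None of these 3 lists shares a control with the MYC list, but all come from the GFP antibody that chose the classes. In tagged 786-O the intervals of the classes did not overlap in any MYC score decile. In the lowest decile 81.2% (69.9 to 89.6) of common and 43.2% (41.0 to 45.4) of other MYC peaks had a tagged peak, and in the highest decile 98.7% (97.3 to 99.5) and 82.6% (80.6 to 84.5). In tagged A498 the highest decile gave 63.4% (58.9 to 67.8) and 30.0% (27.7 to 32.4). The common MYC peaks were also the wider in every score decile, and a wider peak overlaps a peak of any list more easily. The part of width in these differences was not tested.

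**Figure D5:**
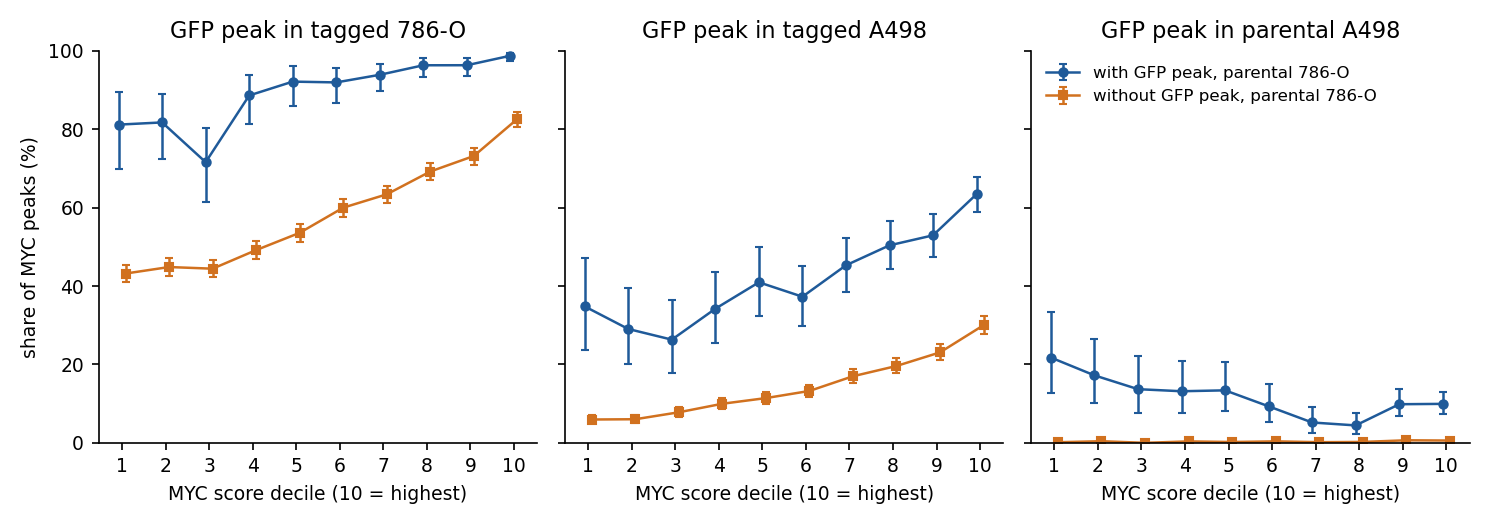
Share of MYC peaks that overlap a GFP peak of tagged 786-O, tagged A498 or parental A498, by MYC score decile, for MYC peaks with (circles) and without (squares) a GFP peak in parental 786-O; bars are exact 95% intervals. Circles lie above squares in every decile of all 3 panels, for example 98.7% against 82.6% in the highest decile for tagged 786-O.

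Seen from the GFP peaks, the shares for all were 76.2% in tagged 786-O, 36.0% in tagged A498 and 21.6% in parental A498. GFP peaks with MYC were found again in tagged 786-O in 92.1% (90.9 to 93.3) of cases and in tagged A498 in 42.4% (40.2 to 44.6). Those without MYC were found in 51.8% (49.1 to 54.6) and 26.2% (23.8 to 28.6). In parental A498 the order was the reverse, with 9.15% (7.93 to 10.5) against 40.7% (38.1 to 43.4). GFP peaks without MYC were rarely in tagged 786-O when weak and mostly so when strong: decile 1 had a share of 25.4% (18.1 to 33.9) and decile 10 one of 86.6% (81.9 to 90.4), while with MYC these were 90.5% and 97.1%.

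Within the tagged 786-O list, peaks at both a MYC and a parental GFP peak ranked highest. Their median score percentile was 79.3 (78.0 to 80.9) over 1795 peaks, against 59.2 (58.3 to 60.0) at MYC alone (10355 peaks), 64.1 (62.1 to 67.0) at parental GFP alone (643) and 29.8 (29.1 to 30.5) at neither (7241). In tagged A498 the order was another: 88.4 (85.9 to 90.4) at parental 786-O GFP alone (341 peaks), 74.5 (72.7 to 76.5) at both (851), 61.8 (60.4 to 63.4) at MYC alone (2762) and 35.5 at neither (3764). Width differed between these classes too. At both, MYC alone, GFP alone and neither, median widths were 807, 550, 298 and 241 bp in tagged 786-O. In tagged A498 they were 353, 291, 305 and 213 bp. The part of width in the ranks was not tested.

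What the MYC precipitation showed and none of the GFP lists did came to 7726 MYC peaks (38.2% of the list, 37.6 to 38.9). Their width had a median of 299 bp and their score one of 11.7 (quartiles 7.48 to 21.2), and their share of the lowest MYC decile was 54.7% (52.5 to 56.9), against 13.3% (11.8 to 14.8) of the highest. The 268 in the highest decile were MYC peaks of high score with no GFP peak in any of the 4 lists. At the other end, 144 MYC peaks overlapped a peak in all of the other 4 lists, with a median width of 735.5 bp. Of the GFP peaks, 526 (15.7%) were in no other list, narrow and weak at medians of 156.5 bp and 4.87, and 4 of them were in the highest GFP decile.

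Common sites were spread over the chromosomes, with a few departures. The share of MYC peaks with a GFP peak lay between 5.11% on chromosome 14 (3.34 to 7.45) and 12.9% on chromosome 8 (10.7 to 15.3) on chromosomes 1 to 22 and X. Both intervals leave out the 9.60% of the whole list, as do those of chromosome 15 (6.38%, 4.55 to 8.65), chromosome 16 (7.15%, 5.56 to 9.02), chromosome 22 (6.91%, 5.02 to 9.22), chromosome X (6.02%, 3.94 to 8.76), chromosome 7 (11.8%, 9.84 to 13.9) and chromosome 9 (11.6%, 9.66 to 13.8). The intervals were not adjusted for the number of chromosomes looked at, so some may leave out this value by counting error alone. On chromosome 14 there were also few GFP peaks for its MYC peaks, 37 against 489. On chromosome Y 45 GFP peaks stood against 14 MYC peaks, and 3 of the 45 overlapped MYC. Sequences other than chromosomes 1 to 22, X and Y held 25 GFP peaks and 7 MYC peaks. Of these GFP peaks 21 lay on 1 contig named for chromosome 9, with 0 at MYC and all 21 with a parental A498 peak.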

How the data were processed

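Peak lists of MYC and GFP ChIP-seq in parental 786-O were compared, with 3 further GFP lists as context. Cells were fixed in 1% formaldehyde and chromatin sheared to about 500 bp, per the labels' protocols, which put the average depth of a library between 30 and 50 M reads. An aligner, BWA, a peak caller, MACS2, and the build hg19 are named per the submitters' processing notes, without versions or settings. Each deposited list gives positions and a score per peak, and its peak names record merging, sorting and a mapping quality step before the call. The authors' score was read as −log10 of a p or q, since each list begins just above 2, the value of 0.01; which of these it is, is not given. Scores rank peaks within 1 list only. No list gives counts, so the depth behind a peak is unknown.

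Groups came from titles, with 1 library each, so no test was made. Overlaps, exact (Clopper-Pearson) shares and exact binomial intervals of medians were computed with Python 3.11.15, numpy 2.4.6, pandas 2.3.3 and scipy 1.17.1. The overlap rule was tested on simulated data and checked against bedtools 2.31.1 (0 of 20199 and 0 of 3361 peaks differed). Peaks named are the 10 of best rank sum among common pairs within 200 bp, 5 such pairs of largest percentile difference in each direction, and the 10 highest of each list without a partner. Members, lists and alternatives were chosen with earlier results of these data known. Start sites, gene lists and E-boxes had been planned and need an hg19 annotation or sequence, which was not used here.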

Additional observations from a re-analysis of the deposited data

How the results depend on the processing

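The shares depend on the overlap rule and the list lengths, and no value has a replicate behind it. In the order of GFP peaks with MYC, MYC peaks with GFP, the highest MYC decile, the highest GFP decile, and the median widths of MYC peaks with and without GFP, the reported values were 60.5%, 9.60%, 23.4%, 20.5%, 740 bp and 403 bp. They were 9.94%, 1.65%, 0.941%, 9.50%, 384 bp and 426 bp with 50% reciprocal overlap, which a narrow GFP peak in a wide MYC peak cannot meet. The order of the widths thus turned. The MYC share of the highest decile (0.567 to 1.46) was no longer above that of the lowest (1.04%). Both lay below the 1.65% (1.48 to 1.84) of the whole MYC list, and the deciles between them were not compared under this rule. The lowest GFP decile had 7.14%, within the interval of the highest (6.59 to 13.1), so no order of these 2 was detectable. With midpoints within 200 bp, with or without overlap, the values were 40.5%, 6.72%, 13.7%, 12.2%, 627 bp and 412 bp. In the upper 50% of each list they were 42.3%, 6.78%, 14.7%, 8.33%, 925 bp and 621 bp, and with both lists limited to 3361 peaks 23.0%, 20.7%, 29.1%, 6.53%, 1074 bp and 801.5 bp. The latter shortens the MYC list alone, to its highest-scoring peaks. Its MYC shares were higher than reported, which follows from the rise of the share with score given above. Its highest MYC decile held 337 peaks, against 2020 in the full list. Without the widest 1% the first 3 were 56.9%, 9.15% and 21.45%. Without crowded bins the GFP share was 66.7% and that of its highest decile, formed anew, 46.1%. Without GFP peaks of parental A498, a setting chosen after seeing the data, the share of GFP peaks was 70.1% and that of MYC peaks 8.70%. With GFP deciles formed anew, the highest had 77.3% (71.7 to 82.2), above the 63.9% of the lowest, so the direction over them turned. In the original deciles the lowest and the highest could not be told apart. There the highest kept 30 of these peaks, at 66.7% (47.2 to 82.7), and the lowest had 64.9% (59.4 to 70.1). The original decile 9 had 78.9% (71.2 to 85.3), with an interval above that of the lowest. Of 54 values, 38 left the interval of the reported one and 16 stayed within it; without contigs and the mitochondrial genome all 6 stayed. The cause of these changes was not tested. Windows at start sites were not run. No paired analysis was possible because each antibody has 1 library.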
